A study of Mus musculus with 6 samples.

Results

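Gata2, Tal1 and Lmo2 encode transcription regulators shared by endothelial and blood cells, and their loci were examined in ATAC-seq libraries of mouse lung endothelial cells. ATAC-seq measures open chromatin by the insertion of adapters by the transposase Tn5. The members were the regions to which the deposited table gives one of the 3 gene symbols, plus regions without a gene whose nearest protein-coding start site in that table, within 100 kb, belongs to one of these genes. This gave 15 of 58172 regions: 8 at Gata2, 7 at Tal1 and 0 at Lmo2. Of the 15, 7 carried a deposited symbol and 8 were placed by distance. Lmo2 is not among the genes named in the table, so its locus is described from RefSeq coordinates, outside this rule.

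The study compared 3 libraries labelled WT and Cre-negative with 3 labelled CSE-KO and Cre-positive. CSE is cystathionine gamma-lyase (the product of Cth), which is lacking in the CSE-KO group. The titles do not say whether Cre was carried by the mice or given to the cells. Cre and the loss of the enzyme go together in every library, so their effects cannot be told apart. The promoter that drives Cre, the age and strain of the mice and whether animals were pooled were not stated in the labels used here. Nothing in the labels says that the libraries came from separate animals, so the p-values reflect the spread between the libraries, which may be technical.

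GATA2 is a zinc-finger factor that binds GATA sequences. TAL1 is a basic helix-loop-helix factor that binds E-box sequences together with an E protein such as TCF3 or TCF12. LMO2 binds no DNA itself and, with LDB1, bridges TAL1 and GATA factors into one complex. These factors are known for their part in the origin of blood and endothelial cells, and GATA2 continues to act in mature endothelium and in lymphatic valves. Each gene is known to be driven by several separate enhancers and by more than one promoter.

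RefSeq (GRCm38.p6, the assembly of mm10) gave the 250 bases upstream of the start sites, shown here because 2 of the regions lie on them and another abuts one. Of the 3 genes, Gata2 and Tal1 were matched in the table of promoters. Both Gata2 sequences lie wholly within a region, at chr6:88193641-88193890 and chr6:88198414-88198663 on the plus strand. The Tal1 sequence, chr4:115056176-115056425 on the plus strand, ends at the start site, and the Tal1 start region begins just after it and shares 0 of its bases. The sequences run 5′ to 3′, with capitals marking matches to the motifs searched.
Gata2 first start: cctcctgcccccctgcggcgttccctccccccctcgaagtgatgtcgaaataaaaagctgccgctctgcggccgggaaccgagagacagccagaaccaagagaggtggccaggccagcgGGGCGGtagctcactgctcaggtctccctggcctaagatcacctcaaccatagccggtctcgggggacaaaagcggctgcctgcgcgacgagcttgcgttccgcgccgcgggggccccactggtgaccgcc
Gata2 second start: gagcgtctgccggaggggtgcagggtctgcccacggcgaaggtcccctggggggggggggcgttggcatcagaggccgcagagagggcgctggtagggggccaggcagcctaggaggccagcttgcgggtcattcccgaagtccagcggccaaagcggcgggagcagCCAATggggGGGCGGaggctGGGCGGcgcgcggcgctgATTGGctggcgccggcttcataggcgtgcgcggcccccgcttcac
Tal1 first start: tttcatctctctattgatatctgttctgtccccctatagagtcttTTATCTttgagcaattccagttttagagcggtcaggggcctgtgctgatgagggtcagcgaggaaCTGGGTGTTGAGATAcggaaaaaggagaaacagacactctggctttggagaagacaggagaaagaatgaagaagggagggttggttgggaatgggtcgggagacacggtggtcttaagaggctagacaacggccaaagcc

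The motifs were searched on both strands. GATA words were AGATAA with its variant AGATAG, as well as TGATAA with its variant TGATAG. E-box words were CAGCTG or else CAGATG, and ETS words were CGGAAG or else AGGAAG. The CCAAT box was searched as CCAAT, and the GC box was searched as GGGCGG. A composite of an E-box end and a GATA core, CTG and GATA with 7, 8 or 9 bases between them, was searched as well. The first Gata2 sequence held 1 GC box and the second 2 GC boxes and 2 CCAAT boxes, and neither held a GATA, E-box or ETS word. The Tal1 sequence held 1 GATA word (TTATCT, the reverse strand of AGATAA) and 1 composite, which share no base. A second Tal1 start, with upstream sequence at chr4:115057561-115057810, lies in no region and is not printed. It held 3 GC boxes and no other motif searched. Of 32817 upstream sequences of this length in the table, 26.6% held a GATA word, 25.5% an E-box word, 39.2% an ETS word, 33.8% a CCAAT box, 32.7% a GC box and 6.13% the composite. A match describes these letters only and does not show binding.

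The deposited value of a region is a read number scaled between libraries and rounded. Sums over all regions ran from 5242490 to 5368491 in WT and from 5437296 to 5547417 in CSE-KO. From 1 to 100, 35 to 39 whole numbers never occur in the CSE-KO columns and 0 in the WT columns, and by this spacing 1 read is worth about 1.54 to 1.64 in CSE-KO, whose small values therefore rest on few reads. Read depth thus goes with the group in every library, and its effect cannot be told apart from that of the group. The promoter of Cth, the targeted gene, had 195, 157 and 167 in WT against 11, 6 and 2 in CSE-KO, so no library went against its label. Changes are CSE-KO minus WT on the log2(value + 1) scale, which understates those of weak regions. They were tested with limma over all 58129 regions with a mean value of at least 5, and a region was called at a Benjamini-Hochberg adjusted p under 0.05. All 15 members passed the filter on the mean.

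Accessibility was lower in CSE-KO at 1 of the 4 regions upstream of Tal1, and no other region of Tal1 or Gata2 was called. By limma 1 of the 15 regions (6.67%) was called, lower in CSE-KO, where 17.3% of all tested regions were called, 7.7% higher and 9.6% lower. The members are thus called no more often than regions at large. Of the 15 log2 changes 13 lay below 0, against 50.3% of all tested regions, and their median was -0.31 against 0.00. This background pools promoter and distal regions, whereas most members lie over 1 kb from the deposited start site of their gene. No background of distal regions alone was computed. The 3 WT and 3 CSE-KO values did not overlap at 5 of the 15, all lower in CSE-KO, and this held at 20.5% of tested regions in that direction and at 19% in the other. None was called higher. At an unadjusted p under 0.05 there were 1 higher and 4 lower, where 16.3% and 17.9% of all tested regions passed. Less open chromatin per cell and fewer cells with the site open cannot be told apart in these bulk samples.

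**Figure D1:**
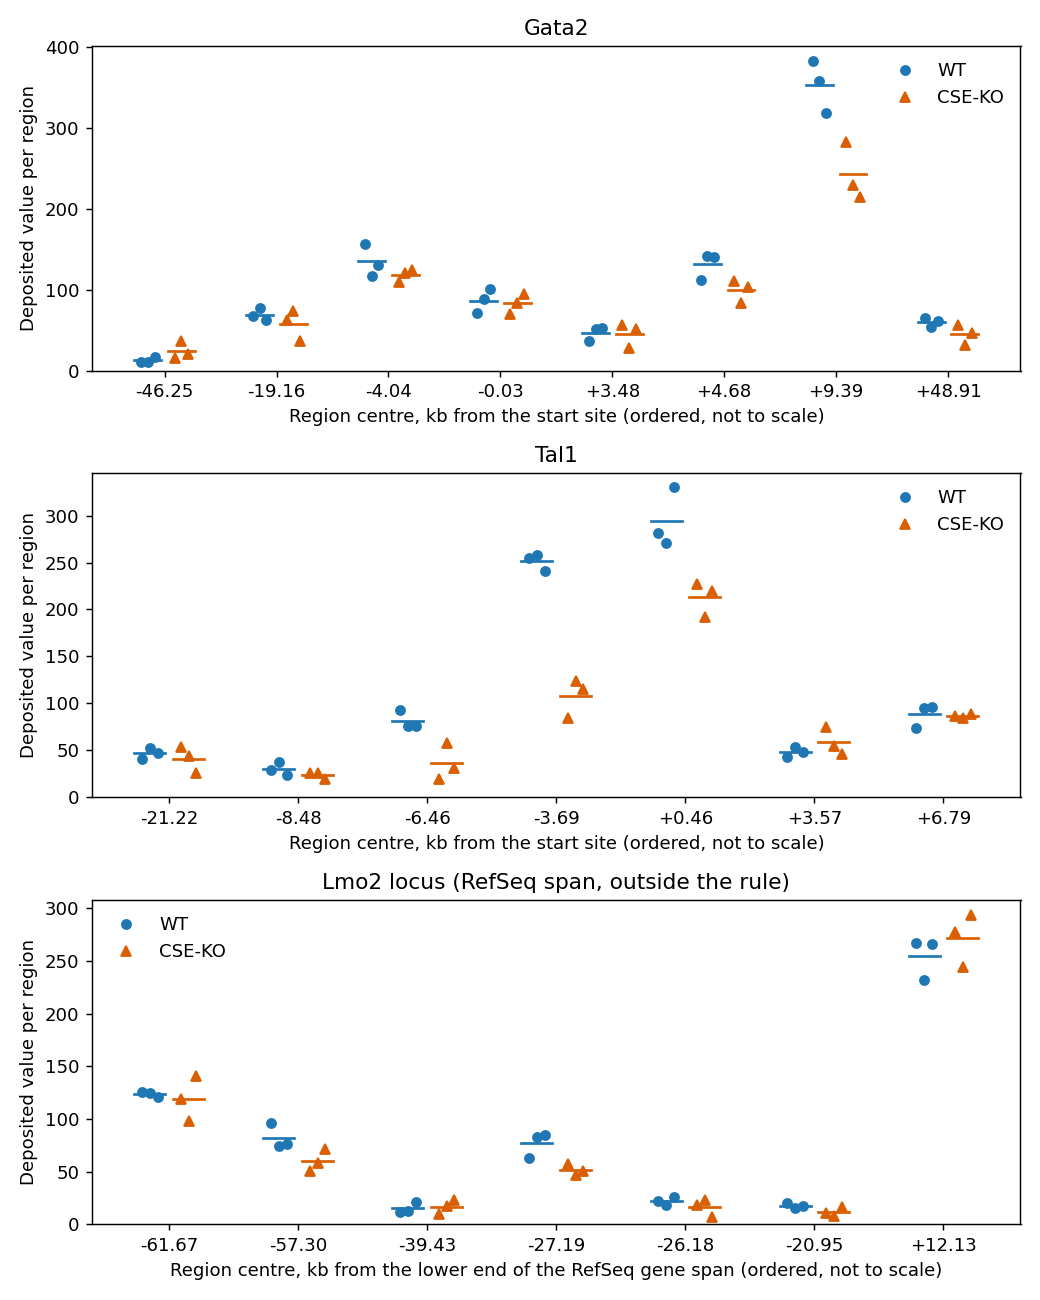
Deposited value (vertical axis, from 0) in each library at each region of Gata2, Tal1 and the Lmo2 locus, ordered by the distance of the region's centre in kb. Circles are the 3 WT and triangles the 3 CSE-KO libraries, and bars are group means. At Tal1 the region 3.69 kb upstream has 241 to 258 in WT and 85 to 124 in CSE-KO, and at Gata2 the region 9.39 kb downstream has the highest values.

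Tal1 (ENSMUSG00000028717) occupies chr4:115056426-115071755 on the plus strand. Its highest value in both groups was at the start site. The region chr4:115056428-115057343, centred 460 bp inside the gene, had 281, 271 and 330 in WT against 227, 192 and 220 in CSE-KO. All 3 CSE-KO libraries were below all WT libraries, at 213 ± 18.5 against 294 ± 31.6 (SD, n = 3 each). The change of -0.46 ± 0.17 (SE, 95% interval -0.86 to -0.06) was not called by limma (adjusted p = 0.103).

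The called region lay 3.69 kb upstream of the Tal1 start site, at chr4:115052451-115053028. It had 255, 258 and 241 in WT, where it stood nearly as high as the start site, and 85, 124 and 115 in CSE-KO. The groups were far apart, with means of 251 ± 9.07 and 108 ± 20.4 (SD, n = 3 each). The fall was 2.34-fold (log2 change -1.23 ± 0.19 SE, 95% interval -1.68 to -0.78, adjusted p = 0.00914 by limma). An upstream enhancer of Tal1 known for its activity in endothelial cells lies on this side of the gene, and whether the region coincides with it was not tested. Of all tested regions 5.3% had a log2 change as low or lower, so a fall of this size was uncommon but not rare in the data.

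The next region, 6.46 kb upstream (chr4:115049787-115050136), had 93, 76 and 76 in WT against 20, 58 and 31 in CSE-KO. Every CSE-KO library was below every WT library, and CSE-KO replicate 2 stood nearest to WT. The change of -1.27 ± 0.36 (95% interval -2.12 to -0.42) was as large as at the called region but more variable, and limma did not call it (adjusted p = 0.0524). Without CSE-KO replicate 2 it was -1.67 and was called (adjusted p = 0.0144). With any other single library left out it was not called (log2 change from -1.32 to -0.92, adjusted p from 0.0849 to 0.154).

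Farther upstream the values were low and the groups overlapped. The region 8.48 kb upstream (chr4:115047843-115048047) had 29, 38 and 24 in WT against 26, 26 and 20 in CSE-KO, a change of -0.31 with an interval of -0.83 to 0.21. The region 21.2 kb upstream (chr4:115035058-115035351) lies inside the neighbouring gene Stil and came to Tal1 by distance. It had 41, 53 and 47 in WT against 54, 44 and 26 in CSE-KO, a change of -0.23 with an interval of -0.90 to 0.43. By RefSeq gene spans the regions 8.48 kb and 21.2 kb upstream both lie closest to genes other than Tal1.

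Inside the gene beyond the start site the groups overlapped too. The region 3.57 kb downstream (chr4:115059873-115060122) had 43, 54 and 48 in WT against 75, 55 and 46 in CSE-KO, a change of 0.25 with an interval of -0.27 to 0.77. The region 6.79 kb downstream (chr4:115062948-115063493) had 74, 95 and 96 in WT against 87, 84 and 89 in CSE-KO, a change of -0.02 with an interval of -0.42 to 0.39. Neither was called by limma (adjusted p = 0.462 and adjusted p = 0.955).

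The balance between the upstream site and the start site was compared within libraries, a comparison chosen after the values were seen. The region 3.69 kb upstream had 0.907, 0.952 and 0.73 of the value at the Tal1 start region in WT against 0.374, 0.646 and 0.523 in CSE-KO. All CSE-KO ratios were below all WT ratios, and the difference on the log2 scale was -0.77. The two-sided exact permutation test gave p = 0.1, the smallest that 3 against 3 libraries allow (Benjamini-Hochberg adjusted p = 0.2 over 2 such ratios). This region held 29.9% ± 1.73 of the summed Tal1 values in WT against 19% ± 3.66 in CSE-KO (SD, n = 3 each).

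3 further regions lie closest to Tal1 by RefSeq gene spans but nearer to the start site of its neighbour Pdzk1ip1, and so fell outside the rule. The region 18.7 kb downstream (chr4:115074957-115075380) had 11, 31 and 37 in WT against 51, 23 and 41 in CSE-KO. The region 19.2 kb downstream (chr4:115075521-115075766) had 17, 21 and 9 in WT against 26, 14 and 25 in CSE-KO. An enhancer active in blood stem cells is known downstream of Tal1. Both regions were weak here, their groups overlapped and limma called neither (adjusted p = 0.407 and adjusted p = 0.393). The region 23.3 kb downstream (chr4:115079572-115079782) had 19, 19 and 12 in WT against 3, 5 and 10 in CSE-KO and was called lower (log2 change -1.43 ± 0.38 SE, adjusted p = 0.043). This call, on few reads, ended without any 1 of WT replicates 1, 2 and 3 or of CSE-KO replicates 1 and 2 (adjusted p = 0.134, 0.131, 0.075, 0.0779 and 0.0932), and with limma's trend and robust options (adjusted p = 0.0561).

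**Figure D2:**
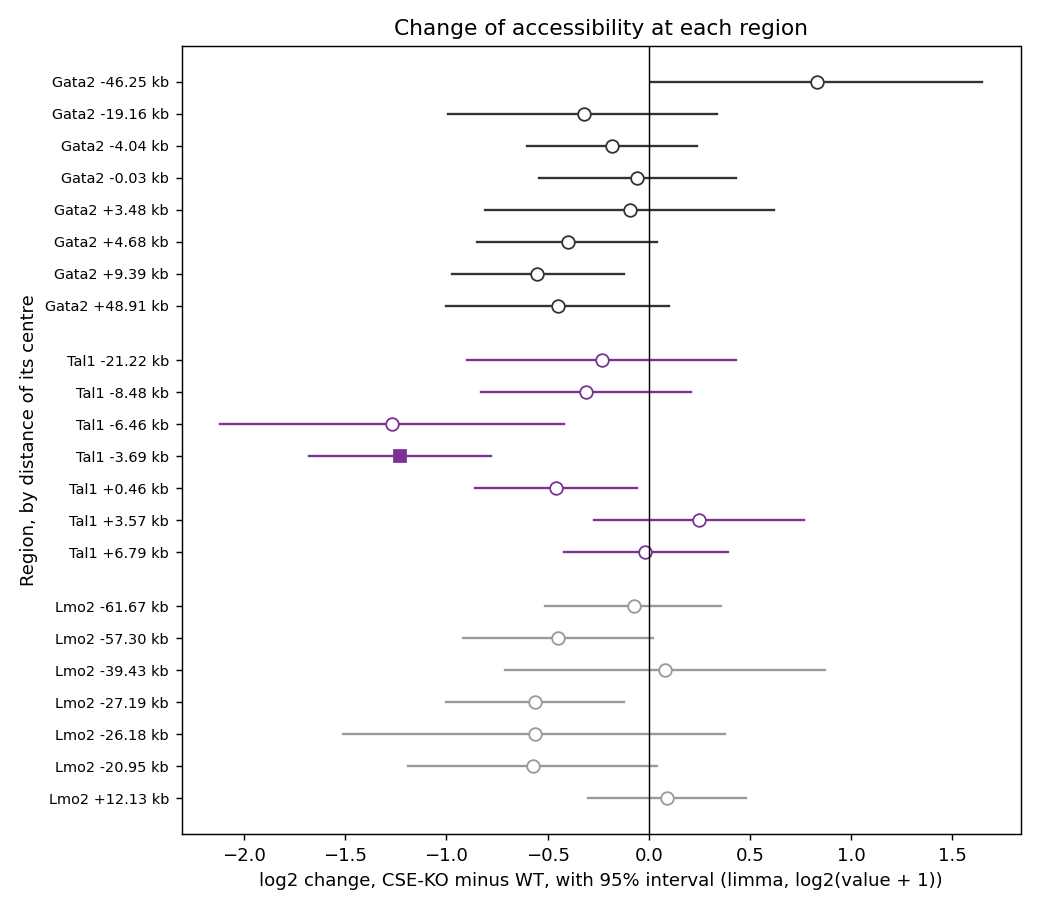
The log2 change (CSE-KO minus WT, horizontal axis) of each region with its 95% interval from limma, by gene and distance of the region's centre in kb. The filled square is the called region of Tal1, at -1.23, and open circles are regions that were not called. The Lmo2 regions in grey were placed by RefSeq gene span.

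Gata2 (ENSMUSG00000015053) occupies chr6:88193891-88207032 on the plus strand. Its strongest region was inside the gene, not at a start site. The region chr6:88202991-88203570, centred 9.39 kb downstream of the first start site, had 383, 358 and 319 in WT against 283, 230 and 215 in CSE-KO. In WT its mean was higher than that of 97% of all tested regions. Every CSE-KO library was below every WT library, at 243 ± 35.7 against 353 ± 32.3 (SD, n = 3 each), but limma did not call the change of -0.55 ± 0.18 (SE, 95% interval -0.97 to -0.12, adjusted p = 0.079). An intronic enhancer with an E-box and a GATA site, needed for Gata2 activity in blood and endothelial cells, is known within this gene. Whether this region coincides with it was not tested.

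The first Gata2 start site lies in the region chr6:88193581-88194142, whose sequence upstream of the start is printed above as the first start. It had 71, 88 and 101 in WT against 70, 84 and 95 in CSE-KO. The groups overlapped almost fully, with a change of -0.06 and an interval of -0.54 to 0.43. The second start site lies in the region chr6:88198299-88198842, 4.68 kb downstream of the first. It had 112, 142 and 141 in WT against 111, 84 and 103 in CSE-KO. Here the groups were next to each other without overlap, and the change of -0.40 ± 0.19 (SE) was not called (adjusted p = 0.182).

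The region 4.04 kb upstream of Gata2 (chr6:88189594-88190117) had 157, 117 and 131 in WT against 109, 121 and 125 in CSE-KO. With the second start region it followed the strongest region in WT level, at 135 ± 20.3 and 132 ± 17, means that differed by less than their spread. Its change was -0.18, with an interval of -0.60 to 0.24. The region 3.48 kb downstream (chr6:88197231-88197503) was weaker, with 36, 52 and 53 in WT against 56, 28 and 52 in CSE-KO and a change of -0.09.

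The 3 remaining regions lay outside the gene. The region 19.2 kb upstream (chr6:88174443-88175020) had 68, 78 and 62 in WT against 62, 74 and 36 in CSE-KO, a change of -0.32 with an interval of -0.99 to 0.34. The region 46.3 kb upstream (chr6:88147518-88147757) had the lowest mean of the locus in both groups, with 10, 11 and 17 in WT against 15, 37 and 21 in CSE-KO. Its change was 0.83, the largest rise among the members, with overlapping groups and an interval of 0.01 to 1.65 (adjusted p = 0.143 by limma). The region 48.9 kb downstream (chr6:88242553-88243052) had 65, 54 and 61 in WT against 56, 32 and 46 in CSE-KO, a change of -0.45 with an interval of -1.0 to 0.10. By RefSeq gene spans the regions 46.3 kb upstream and 48.9 kb downstream lie closest to Rpn1 and Eefsec.

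None of the 8 Gata2 regions was called by limma as run here, and at an unadjusted p under 0.05 there were 1 higher and 1 lower, near the 16.3% and 17.9% of all tested regions. With limma's trend and robust options the strongest region was called lower (adjusted p = 0.00351). This region was 5.39, 4.07 and 3.16 times as high as the first start region in WT against 4.04, 2.74 and 2.26 times in CSE-KO. These ratios overlapped between the groups (two-sided exact permutation p = 0.2, adjusted p = 0.2). Summed over its 8 regions, Gata2 had 902, 900 and 885 in WT against 762, 690 and 693 in CSE-KO. The sums over the 7 Tal1 regions were 816, 845 and 862 in WT against 574, 583 and 547 in CSE-KO. Both sums were lower in all CSE-KO libraries than in any WT library. The share of all genes whose sums separate in this way was not computed.

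**Figure D3:**
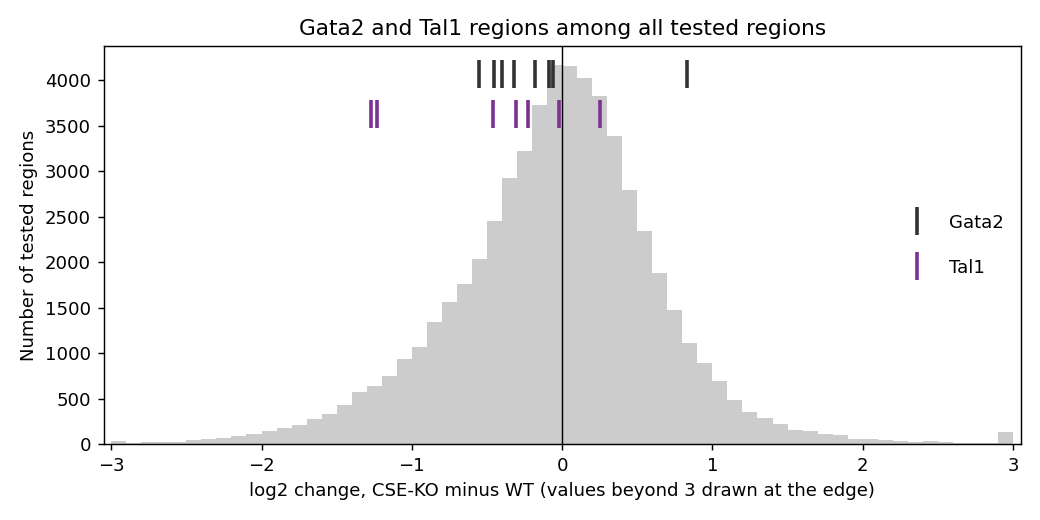
Number of tested regions (vertical axis) by log2 change, CSE-KO minus WT (horizontal axis, values beyond 3 at the edge), in bins of width 0.1, over all 58129 tested regions. Upright marks are the 8 Gata2 and 7 Tal1 regions. The marks of Tal1 at -1.27 and -1.23 lie in the lower tail, and the others lie between -0.55 and 0.83.

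Lmo2 lies at chr2:103957903-103981878 in RefSeq, and 7 regions without a gene in the table are closest to this span. These regions were chosen after their values were seen. By the rule most of them, also the one inside Lmo2, went to other genes with the nearest start site in the table. A single one lay within the gene, chr2:103969305-103970764, and it was the strongest of the 7. It had 267, 232 and 266 in WT against 278, 244 and 294 in CSE-KO, so that the groups overlapped (change 0.09, interval -0.30 to 0.48, adjusted p = 0.735 by limma). Lmo2 is known to have a promoter inside the gene that is used in endothelium, and whether this region coincides with it was not tested.

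The other regions lie on the lower-coordinate side of Lmo2. The region 27.2 kb away (chr2:103930459-103930965) had 63, 83 and 85 in WT against 57, 47 and 51 in CSE-KO, without overlap (change -0.56 ± 0.19 SE, adjusted p = 0.083). The region 57.3 kb away (chr2:103900432-103900777) had 96, 74 and 76 in WT against 51, 58 and 71 in CSE-KO, also without overlap (change -0.45 ± 0.20 SE, adjusted p = 0.161). The region 61.7 kb away (chr2:103895907-103896563) had 126, 125 and 121 in WT against 119, 98 and 141 in CSE-KO. At the regions 21.0, 26.2 and 39.4 kb away no library was above 26. None of the 7 was called by limma. At an unadjusted p under 0.05 only the region 27.2 kb away was lower and none was higher, where 17.9% and 16.3% of all tested regions passed.

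Genes whose products work with these factors were taken as lists, with regions assigned in the same way. Partners and cofactors of the complex, 25 genes such as Ldb1, the E proteins and the Id inhibitors of E proteins, had 5 regions higher and 13 lower of 107 (4.67% and 12.1%, against 7.7% and 9.6% of all tested regions). Leaving out 1 WT library gave 0 to 1 higher and 5 to 6 lower, and leaving out 1 CSE-KO library 0 to 2 and 12 to 16. Over all tested regions the shares without 1 WT library were 2.78% to 3.09% higher and 3.19% to 3.28% lower. Without 1 CSE-KO library the shares were 5.97% to 6.16% higher and 8.52% to 9.18% lower. The median log2 change was -0.07, against 0.00 over all tested regions. Regions near Id1, Id2 and Id3, which keep E proteins from binding DNA, fell 3.09-fold, 2.52-fold and 2.08-fold. A weaker region of Id3 rose 2.18-fold. The promoters of Kdm1a, a histone demethylase recruited by the complex, and of Tcf12, an E protein partner of TAL1, rose 1.74-fold and 1.52-fold (adjusted p = 0.0336 and adjusted p = 0.0428 by limma). The Tcf12 call ended without any 1 of the 6 libraries (adjusted p from 0.057 to 0.144) and with equal sums (adjusted p = 0.0543), the Kdm1a call without any except CSE-KO replicate 1 (adjusted p up to 0.119), and the call of the weaker Id3 region when WT replicate 1, WT replicate 3 or CSE-KO replicate 2 was left out (adjusted p = 0.0744, 0.0749 and 0.0524).

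Other transcription factors of blood and endothelium had 7 regions higher and 9 lower of 80 (18 of 23 genes with a region, median -0.04). These shares of 8.75% and 11.2% are near those of all tested regions. They became 2 to 4 higher and 2 to 4 lower regions without 1 WT library, and 3 to 4 and 5 to 9 without 1 CSE-KO library. The shares of all tested regions without 1 library are those given above. Runx1, a blood stem cell factor, had both: a region at chr16:92823391-92823873 fell from 149 ± 11 to 56 ± 6.08, and one at chr16:92867342-92867534 rose from 4 ± 2.65 to 30.3 ± 10.2 (SD, n = 3 each). Regions near Ets1, an ETS factor of endothelium, and Meis1, a homeobox factor, fell 2.79-fold and rose 3.67-fold. The Spi1 promoter fell 1.7-fold and the Fli1 promoter rose 2.18-fold. The Fli1 promoter was no longer called with WT replicate 1 or 3, or CSE-KO replicate 2 or 3, left out (adjusted p = 0.0982, 0.0919, 0.0791 and 0.0742), nor that of Spi1 with WT replicate 1, 2 or 3, or else CSE-KO replicate 1, left out (adjusted p = 0.0709, 0.0781, 0.0989 and 0.0538).

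Endothelial genes reported as targets of GATA2 or TAL1 had 9 regions higher and 25 lower of 108 (16 of 18 genes with a region). That is 23.1% lower and 8.33% higher, against 9.6% and 7.7% of all tested regions. Without 1 WT library 1 to 3 were higher and 8 to 9 lower, and without 1 CSE-KO library 6 to 7 and 20 to 26. Over all tested regions calls fell as well, to 2.78% to 3.09% higher and 3.19% to 3.28% lower without 1 WT library. Without 1 CSE-KO library these shares were 5.97% to 6.16% and 8.52% to 9.18%. The median of the target regions was -0.34, with 0.27 over 15 promoter regions, within 1 kb of a start site, and -0.49 over 93 distal ones. The shares of all tested regions pool promoter and distal regions, and no distal share was computed. Promoter and distal medians were also apart for the partners (0.05 and -0.23) and the endothelial markers (0.33 and -0.55). They were close for the other factors (-0.04 and -0.05) and reversed for leukocyte markers (-0.5 and -0.33), which held only 2 promoter regions. The promoter median was also the higher for erythroid, megakaryocyte and mast cell markers (0.77 and 0.47). So it was for lung epithelial (0.18 and -0.2) and mural and fibroblast markers (0.25 and 0.03). These lists held 4, 2 and 3 promoter regions. Regions near Prox1, the lymphatic master regulator, Angpt2, a ligand of the receptor TIE2, and Flt4, the lymphatic VEGF receptor, fell 3.12-fold, 3.03-fold and 2.6-fold. Rises were called at other regions of Kdr (2.61-fold), Itga9 (2.4-fold) and Angpt2 (1.76-fold). The Angpt2 rise was not called without WT replicate 1, 2 or 3 (adjusted p = 0.0817, 0.0659 and 0.086), nor that of Itga9 without WT replicate 2 or 3 (adjusted p = 0.0508 and 0.0559). Of these 18 genes 6 are also among the endothelial markers below.

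Marker genes of cell types that could be present were counted beside the fall at Tal1. Endothelial markers had 3 regions higher and 17 lower of 61 (9 of 10 genes with a region). That is 4.92% and 27.9%, against 7.7% and 9.6% of all tested regions. Without 1 WT library 1 was higher and 4 to 5 were lower, and without 1 CSE-KO library 1 to 5 and 10 to 15. Their summed values were 6806 to 7126 in WT and 5452 to 5841 in CSE-KO. Markers of erythroid cells, megakaryocytes and mast cells, which also use Gata2 and Tal1, had 3 higher and 0 lower of 14 (7 of 16 genes), with sums of 836 to 876 in WT and 1237 to 1269 in CSE-KO. The 3 are 21.4%, against 7.7% of all tested regions, and became 0 without WT replicate 1 or 3 and 1 without WT replicate 2 or CSE-KO replicate 2. The promoter of Kit, a stem cell factor receptor, was among them (1.75-fold), while Gata1, the globins Hbb-bt and Hba-a1 and the mast cell genes Cpa3, Fcer1a, Ms4a2 and Tpsb2 were among the genes with no region. Leukocyte markers had 0 higher and 1 lower of 8 (5 of 10 genes), with sums of 552 to 613 and 456 to 488. The 1 lower region is the Spi1 promoter, already counted among the other transcription factors above. Erg of the endothelial markers and Gata1 and Klf1 of the erythroid list are also in that list of factors. Lung epithelial markers had 2 higher and 2 lower of 20 (4 of 8 genes), with sums of 1197 to 1224 and 1056 to 1225. Mural and fibroblast markers had 1 higher and 3 lower of 22 (6 of 8 genes), with sums of 1116 to 1178 and 1064 to 1115. Without 1 WT library the leukocyte list had 0 lower, the epithelial list 0 higher and 1 to 2 lower, and the mural list 0 to 1 higher and 1 to 2 lower. For all marker lists, the shares of all tested regions without 1 library are those given with the partners above. The part that the shifts of marker regions had in the result at Tal1 was not tested.

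The genes whose summed values followed Tal1 most closely over the 6 libraries, of 1408 genes compared, were Mdm1, Myef2 and Tnfsf10 (Pearson r = 0.999, 0.993 and 0.993). For Gata2, Magi1 and Slc43a3 were among the closest (r = 0.995 each). All of these sums were lower in every CSE-KO library than in any WT library, so the likeness rests largely on the difference between the groups. Mdm1 had 1395, 1477 and 1460 in WT against 976, 997 and 941 in CSE-KO. Tnfsf10, the death ligand TRAIL, had 1026, 1044 and 989 in WT against 568, 569 and 534 in CSE-KO.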

How the data were processed

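The submitters' processing notes name the tools Trimmomatic (0.39), STAR (2.7.3a), Picard (3.1.1) and also DESeq2 (1.26.0), with the build mm10. What each tool did, how peaks were called and whether read ends were shifted for Tn5 is not given in the sources used here. Values are handled as a score as deposited: read numbers that the authors scaled and rounded, as the near-equal sums and skipped whole numbers show, so no model for raw counts was run. Regions were tested with limma 3.58.1 in R 4.3.3 (log2(value + 1), eBayes with trend and robust off, mean of at least 5), with Benjamini-Hochberg adjustment over all 58129 regions. Within-library ratios used exact permutation tests (scipy 1.17.1). The script was tested on simulated data.

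All member regions are given. From each list of partners, other factors and targets, up to 3 genes per direction with the smallest p were named, and marker lists are given by counts. Like genes are those with the highest Pearson correlation of log2 sums, among genes with at least 5 regions and at least the median sum. Members and lists were chosen with earlier results of these data known. Coordinates are as deposited, and exon, intron and UTR positions were not used here. Alternatives were other pseudocounts, filters, scalings and limma options, the replicate number as a block, leaving out each library, and other assignments of regions. Some genes that these rules take are not reported here.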

Additional observations from a re-analysis of the deposited data

How the results depend on the processing

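The fall at the Tal1 region 3.69 kb upstream was called under all 15 other settings of the fit (log2 change from -1.34 to -1.07, adjusted p from 7.25e-06 to 0.0443), and the Cth promoter was too. No member was called higher under any setting. The count of lower members was 1, and became 2 with a pseudocount of 5, a minimum mean of 20 or equal sums (each adding the Tal1 region 6.46 kb upstream), 4 with limma's trend and robust options (adding that region and also the Tal1 start region, adjusted p = 0.0125, and the Gata2 region 9.39 kb downstream, adjusted p = 0.00351), and 2 with RefSeq gene spans, chosen after the data were seen, which give 21 regions. The cause of these shifts was not tested. Leaving out 1 library gave 1 to 2. Over all regions the 4478 higher and 5579 lower calls became 7185 and 8263 with trend and robust, 3883 and 6398 with equal sums, 2594 and 3419 with the replicate block, and fell to 1613 and 1906 without WT replicate 3. With the replicate block 1 member was lower and 0 were higher, and the calls ended at the region 23.3 kb downstream of Tal1 (adjusted p = 0.0851), at Tcf12 (0.0934), Kdm1a (0.0574), Fli1 (0.0536) and Spi1 (0.0636) and for the Angpt2 rise (0.053). It gave 2 higher and 9 lower partner regions, 3 and 5 of other factors, 4 and 14 of targets, 1 and 6 of endothelial markers and 1 and 0 of erythroid, megakaryocyte and mast cell markers. Same-numbered libraries did not deviate together (correlations -0.006, -0.011 and 0.01). The labels do not say whether the numbers pair the libraries, and with 3 libraries per group these correlations cannot settle it. Leaving out 1 library turned the sign of uncalled changes near 0: the log2 change ran from -0.19 to 0.06 at the first Gata2 start, from -0.27 to 0.22 at 3.48 kb of Gata2, from -0.45 to 0.06 at 21.2 kb upstream of Tal1, from -0.14 to 0.05 at 6.79 kb of Tal1, and from -0.20 to 0.06 and from -0.17 to 0.39 at 61.7 and 39.4 kb from Lmo2.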
